A study of Mus musculus with 11 samples.

Results

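The genes described here are 33 mouse genes that bring glucose into the cell, break it down to pyruvate and lactate, and carry lactate out: 3 glucose transporters, the enzymes and paired regulators of glycolysis, lactate dehydrogenase, 2 lactate transporters and the kinases that hold pyruvate back from the mitochondrion. They were chosen by name as a pathway, and all 33 were found among the 23355 gene symbols of the deposited tables. Total RNA was sequenced in 11 libraries from NMuMG (mammary gland epithelium, strain NAMRU), E14 embryonic stem cells (strain 129/Ola, called ES here) and NIH3T3 (fibroblasts, strain NIH/Swiss). NMuMG had 2 parental replicates (1 and 3) and 2 replicates with a BRE reporter transgene, which reads BMP signalling (2 and 4). ES had 1 parental replicate (1) and 2 reporter replicates (2, the mean of 2 technical runs, and 4). NIH3T3 had 1 parental replicate (1), and the remaining tables, named replicates 2 and 3, could not be matched one by one to its reporter samples. Every medium was DMEM with serum, sodium pyruvate and L-glutamine. ES cells grew on gelatin with LIF and a different serum from the other lines, so line and medium cannot be told apart.

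Glycolysis splits glucose into pyruvate with a small gain of ATP. Lactate dehydrogenase then turns pyruvate into lactate, which monocarboxylate transporters release with a proton, or pyruvate dehydrogenase feeds the carbon to the mitochondrion. Most steps can be run by several isoforms from separate genes, and cell types differ in which ones they use. Pluripotent stem cells are known for a high glycolytic rate. RNA levels are not rates, and in bulk RNA a lower level per cell and fewer expressing cells cannot be told apart.

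Levels are given as FPKM, which scales fragments by transcript length and library size, so they can be set beside each other per length. Changes are limma estimates on log2(FPKM + 1), which understate the change of low genes. A gene was called when its adjusted p was under 0.05 over all genes tested and its change at least 2-fold, and "rose" and "fell" are used for called genes alone. Beyond the biological numbers in the sample titles nothing states that replicates were separate cultures, so p-values measure the spread between these samples. Absolute depth is unknown, since the tables hold no read counts. The table names fall into 3 number runs, treated as library series. Series 1 holds ES 1 and 2 and NMuMG 1 and 2, series 2 holds ES 4, NMuMG 3 and 4 and NIH3T3 1, and series 3 holds NIH3T3 2 and 3, whose depth relative to ES 1, read from the deposited intervals, was 3.81 and 3.80 against 0.933 to 1.28 in the others. Small nucleolar RNA and microRNA entries took 12.3% to 19.7% of the FPKM in series 1 and 3.80% to 6.09% in the others, and the pathway sum is given further on also as a percent of the remaining FPKM. Line markers followed the labels. Summed over 5 genes each, ES markers stood at 3585 to 4781 FPKM in ES and at most 4.46 elsewhere, and collagens with Thy1 and Pdgfrb at 1815 to 4427 in NIH3T3 and at most 4.91 elsewhere. Epithelial markers stood at 4210 to 6037 in NMuMG and 154.5 to 189.9 in ES, where Cdh1 and Epcam made up most of it. Epcam itself was low in NMuMG, at 2.10 to 7.57 FPKM.

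**Figure D1:**
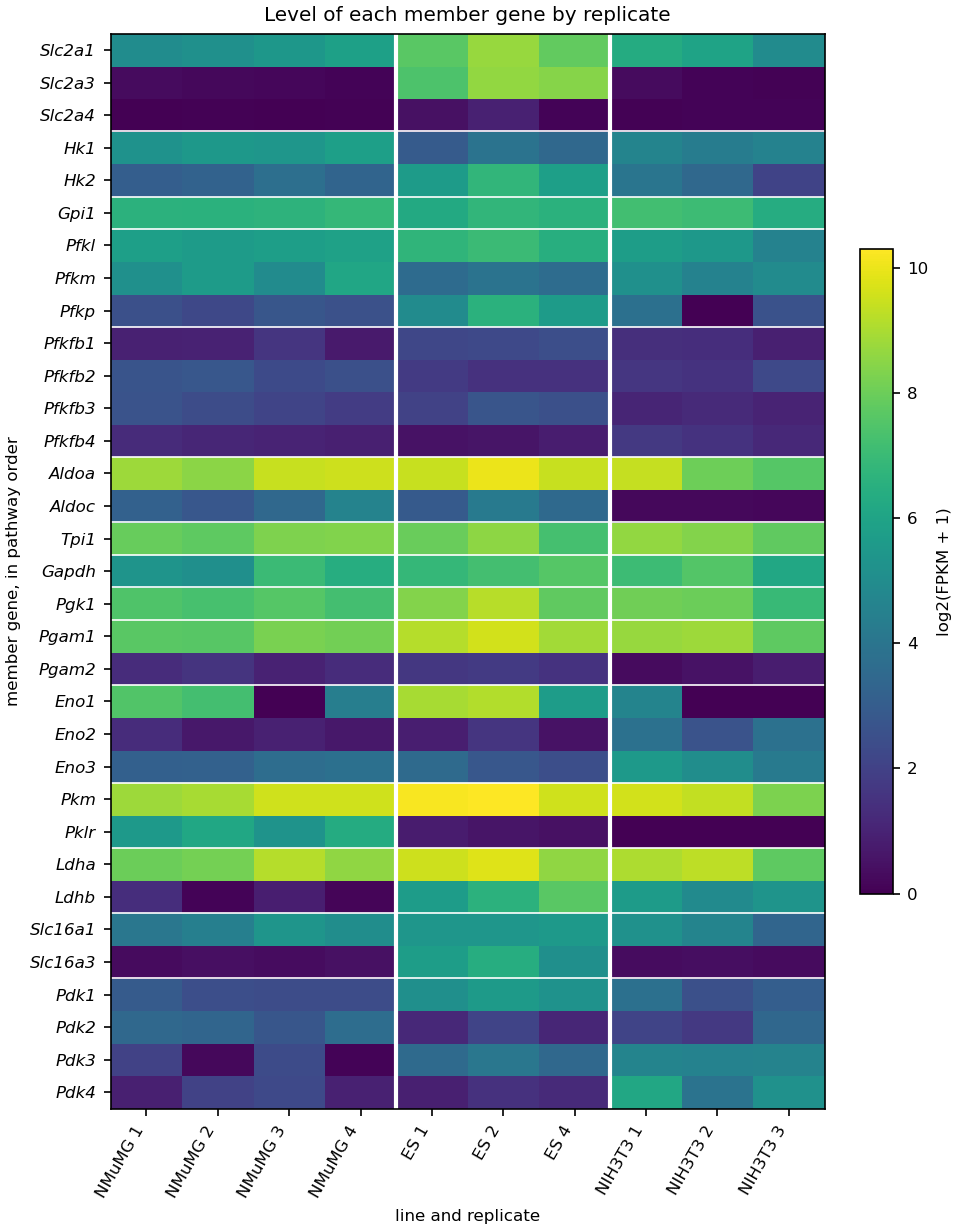
Levels of the 33 genes (rows, in pathway order) in the 10 replicates (columns), as log2(FPKM + 1), with white lines between steps and lines. Slc2a3 and Slc16a3 are bright in ES cells alone, Pklr in NMuMG alone, Ldhb is dark in NMuMG, and Eno1 is at 0 in 3 replicates.

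In ES cells against NMuMG more genes of the pathway rose than fell. Of the 33 genes 32 passed the filter on low values (Slc2a4 did not), 12 rose and 5 fell. Over all 12350 genes tested, 19.4% were higher and 26.4% lower in ES cells. The median log2 change was 0.76 over the 32 genes and -0.09 over all genes. At an unadjusted p under 0.05 (limma) stood 62.5% of the 32 genes and 71% of all genes. In NIH3T3 against NMuMG 5 rose and 3 fell, with 10.6% of all genes higher and 14.4% lower, and medians of -0.06 and -0.05. In ES against NIH3T3 14 rose and 5 fell, against 20.1% higher and 23% lower over all genes, and medians of 0.87 and 0.03. The 3 comparisons share samples. Slc2a3 and Slc16a3 reached 1 FPKM in ES cells alone and Pklr in NMuMG alone, so they entered the test through the line in which they are high. The p-values given for these 3 genes, and the counts that include them, are descriptions.

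Glucose entry showed the widest gap between lines. Slc2a3 (mm10 chr6:122727809-122742745) encodes GLUT3, a high-affinity transporter best known from neurons and early embryos. It stood at 169, 391 and 343 FPKM in ES 1, 2 and 4, at 0.0789 to 0.238 in the 4 NMuMG replicates and at 0.0292 to 0.244 in the 3 NIH3T3 replicates. No replicate outside ES cells came near 1 FPKM, and the log2 change was 7.94 against NMuMG (SE 0.259, adjusted p = 4.73e-09) and 8.002 against NIH3T3. Slc2a1 encodes GLUT1, the transporter of most cells in culture, and was present everywhere. It stood at 200.3, 421.9 and 226.5 FPKM in ES cells, at 31.6, 34.6, 43.3 and 56.3 in NMuMG and at 79.0, 61.1 and 30.2 in NIH3T3. The ES replicates lay above all others and those of NMuMG and NIH3T3 overlapped. Slc2a1 rose by 2.70 in ES cells against NMuMG (SE 0.359, adjusted p = 8.18e-05) and by 2.32 against NIH3T3. The insulin-responsive GLUT4 gene Slc2a4 stayed under 1 FPKM in every replicate (at most 0.949, in ES 2). Of the summed FPKM of the 3 transporters, Slc2a3 made up 51.3% ± 7.79 (SD, n = 3) in ES cells, 0.423% ± 0.261 in NMuMG (n = 4) and 0.168% ± 0.121 in NIH3T3 (n = 3).

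Hexokinase traps glucose as its phosphate, and the lines used opposite isoforms. Hk2, the form of muscle and many tumours, stood at 49.8, 110.1 and 54.8 FPKM in ES cells, at 7.33, 8.31, 12.5 and 9.003 in NMuMG and at 15.2, 10.1 and 3.21 in NIH3T3. Hk1, the widely expressed form, stood at 6.71, 14.01 and 10.2 FPKM in ES cells, at 37.1, 44.0, 41.6 and 55.9 in NMuMG and at 24.2, 18.9 and 22.9 in NIH3T3. For both genes the ES replicates lay outside the range of the other lines. Hk2 rose by 2.75 against NMuMG (SE 0.432, adjusted p = 0.000262) and by 2.90 against NIH3T3, while Hk1 fell by 2.05 (SE 0.228, adjusted p = 2.30e-05) and by 1.07. Against NIH3T3 the fall of Hk1 was not called under median-ratio scaling or quantile normalization, with a term for library series, or without ES 1 or NIH3T3 1. The Hk1 entry overlaps another one, 2210417K05Rik. Hk2 made up 87.0% ± 2.41 of the pair in ES cells, 17.3% ± 3.98 in NMuMG and 28.5% ± 14.2 in NIH3T3, where replicate 3 was lowest at 12.3%. Gpi1, which turns glucose phosphate into fructose phosphate, was not called in any line comparison and ranged from 76.3 to 142.7 FPKM over all replicates.

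The stretch before the transcription start is shown for Slc2a1, Hk2 and Slc16a3, the last of which encodes a lactate exporter described below, because these genes were high together in ES cells and hold the letters described here; they were picked with both known. Each line gives the 250 bases upstream of the RefSeq start (GRCm38.p6, the assembly of mm10), 5′ to 3′ on the gene's strand: Slc2a1 at chr4:119108495-119108744 (plus), Hk2 at chr6:82774455-82774704 (minus) and Slc16a3 at chr11:120948817-120949066 (plus). Capitals mark ACGTG or its reverse complement CACGT, a form of the core letters of the element that hypoxia-inducible factors bind. The form GCGTG was not searched for.
Slc2a1: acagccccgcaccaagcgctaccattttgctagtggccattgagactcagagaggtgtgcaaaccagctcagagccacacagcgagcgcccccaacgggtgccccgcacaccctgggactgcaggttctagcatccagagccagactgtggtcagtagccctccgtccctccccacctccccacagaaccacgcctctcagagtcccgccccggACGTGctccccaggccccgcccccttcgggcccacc
Hk2: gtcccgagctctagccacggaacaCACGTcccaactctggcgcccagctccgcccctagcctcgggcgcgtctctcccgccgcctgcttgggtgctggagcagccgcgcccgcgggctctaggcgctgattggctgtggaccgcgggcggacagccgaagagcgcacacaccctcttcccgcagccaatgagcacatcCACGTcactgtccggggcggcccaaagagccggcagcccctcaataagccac
Slc16a3: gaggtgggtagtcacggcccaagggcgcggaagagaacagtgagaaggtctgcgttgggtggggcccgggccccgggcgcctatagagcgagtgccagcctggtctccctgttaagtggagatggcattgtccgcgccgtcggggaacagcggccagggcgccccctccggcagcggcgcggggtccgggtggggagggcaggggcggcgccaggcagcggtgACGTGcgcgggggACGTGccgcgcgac
RefSeq rows were found for 31 of the 33 genes, with 51 starts between them. ACGTG or CACGT stood in 18 of those 51 windows (35.3%, 14 genes) and in 16.6% of all 32851 windows of that length. The longer letters CACGTG, an E-box that always holds ACGTG, stood in 6 windows (11.8%) against 6.02% of all. Of the 11 genes with a window that rose in ES cells against NMuMG 6 had a match, the 3 shown with Pgk1, Pgam1 and Pdk3, and Pdk1, Pfkp, Pfkfb1, Gapdh and Ldhb had none. Of the 5 that fell 3 had a match (Pfkm, Pfkfb2 and Pdk2), and Hk1 and Pklr had none. Of the 15 that were not called 5 had a match. In these counts a gene had a match if any of its windows did, and the share of all genes on that basis was not computed. Overlapping Aldoa windows hold the same site, which enters the window count through each. The deposited Slc16a3 entry begins upstream of the RefSeq start, at 120948484. A gene without a match can still hold GCGTG, as windows of both Pdk1, which rose, and Hk1, which fell, do. A match is a description of letters, and binding was not measured.

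Phosphofructokinase 1 commits sugar to glycolysis and exists as liver (Pfkl), muscle (Pfkm) and platelet (Pfkp) types. By its mean Pfkl was the leading gene of the step in each line (Pfkm led in NMuMG 4 and NIH3T3 3), at 105.9, 128.9 and 86.5 FPKM in ES cells, 54.8, 50.0, 53.0 and 59.1 in NMuMG and 51.5, 44.0 and 22.6 in NIH3T3. The ES replicates were the highest, with log2 changes of 1.48 against NIH3T3 (called, SE 0.272, adjusted p = 0.000823, but not with a term for library series) and 0.95 against NMuMG, just under 2-fold. Pfkm stood at 10.97, 14.1 and 11.4 FPKM in ES cells against 30.0 to 67.1 in NMuMG and 22.4 to 34.9 in NIH3T3, without overlap. It fell by 1.76 against NMuMG (SE 0.265, adjusted p = 0.000195) and by 1.19 against NIH3T3. Pfkp stood at 30.0, 94.7 and 49.1 FPKM in ES cells and 4.73, 3.65, 5.79 and 4.91 in NMuMG, and rose by 3.21 (SE 0.734, adjusted p = 0.00292). In NIH3T3 it was at 13.0 in replicate 1, listed at 0 in replicate 2 and at 5.05 in replicate 3. Its entry overlaps Pitrm1, so the listed 0 is uncertain. By summed FPKM the step was made up mainly of the liver and platelet genes in ES cells (61.8% ± 9.28 and 31.2% ± 9.89) and of the liver and muscle genes in NMuMG (52.8% ± 7.03 and 42.5% ± 8.29) and NIH3T3 (52.3% ± 13.7 and 40.4% ± 10.5). Pfkm overlaps Senp1 in the tables.

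**Figure D2:**
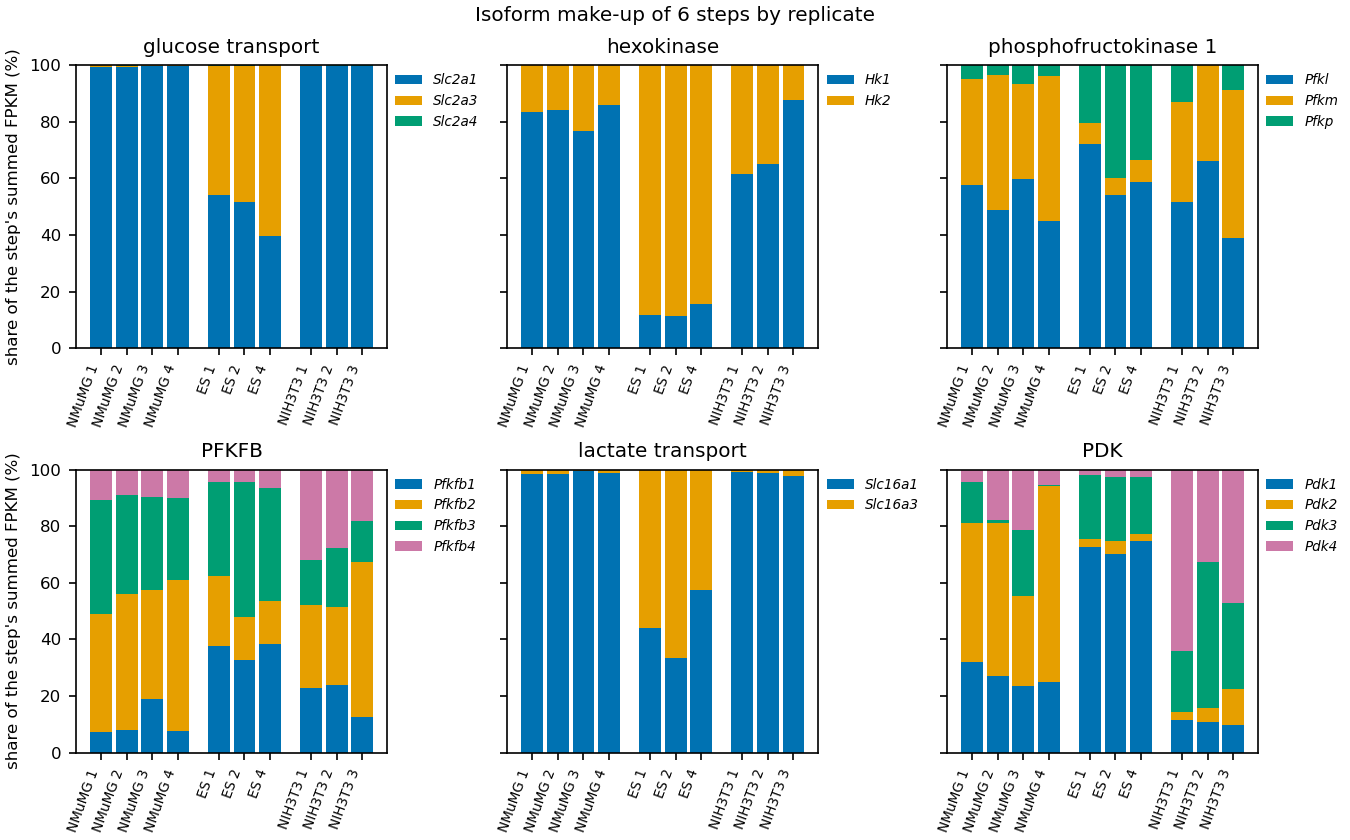
Stacked bars give each gene's share (percent) of the step's summed FPKM in every replicate, for 6 steps with several isoforms. ES cells stand apart in glucose transport (Slc2a3), hexokinase (Hk2), phosphofructokinase 1 (Pfkp for Pfkm), lactate transport (Slc16a3) and the pyruvate dehydrogenase kinases (Pdk1), while NIH3T3 is led by Pdk4 in the last, or in replicate 2 by Pdk3.

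The PFKFB enzymes make and remove fructose 2,6-bisphosphate, the strongest activator of phosphofructokinase 1. All 4 genes were low, at 0.420 to 5.92 FPKM. Pfkfb1, the liver and muscle form, stood at 3.57, 3.82 and 4.49 in ES cells, above 0.666 to 1.98 in NMuMG and 0.883 to 1.60 in NIH3T3, and rose by 1.24 and by 1.09, the latter not called without NIH3T3 3. Pfkfb2, the heart form, stood at 2.33, 1.77 and 1.79 in ES cells and 3.99 to 5.92 in NMuMG, and fell by 1.02 (SE 0.210), a change that was not called under quantile normalization or median-ratio scaling, or without any of 4 replicates in turn (ES 2, ES 4, NMuMG 1 and NMuMG 2). The inducible Pfkfb3 stood at 3.13, 5.601 and 4.70 in ES cells, 2.57 to 5.28 in NMuMG and 1.01 to 1.35 in NIH3T3, which lay below both, with log2 changes of -1.15 (SE 0.226) in NIH3T3 against NMuMG and 1.32 (SE 0.242) in ES against NIH3T3. With quantile normalization or a term for library series the first of these was not called. Pfkfb4, also known as inducible, was not called in any comparison, at 0.420 to 2.24 FPKM.

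Aldolase cuts the 6-carbon sugar, and Aldoa carried at least 96.9% of the step in every replicate. It stood at 692, 1010.0 and 689 FPKM in ES cells, 439, 368, 685 and 732 in NMuMG and 672, 259.6 and 192 in NIH3T3. The lines overlapped: Aldoa was not called in ES against NMuMG (log2 change 0.55) or NIH3T3 against NMuMG (-0.72), and rose by 1.28 in ES against NIH3T3 (SE 0.438, adjusted p = 0.0266). That call was lost without ES 2, NIH3T3 2 or NIH3T3 3, with a term for library series, and with no filter, and between the series 2 replicates of the pair the difference was 0.04. Aldoc, the brain form, was nearly absent from NIH3T3, at 0.164, 0.160 and 0.120 FPKM, against 5.96 to 23.5 in NMuMG and 6.53 to 17.9 in ES cells, which overlapped. It fell by 3.33 in NIH3T3 against NMuMG (SE 0.413, adjusted p = 9.61e-05) and rose by 3.36 in ES against NIH3T3.

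The middle of the pathway has 1 main gene at each step. These were present in every replicate of all 3 lines, with the lowest level for Gapdh in NMuMG. Tpi1, which interconverts the triose phosphates, ranged from 153 to 394 FPKM with no call. Gapdh, the oxidizing step, stood at 115.8, 149.7 and 189.3 in ES cells, 39.6, 34.0, 129.7 and 84.9 in NMuMG and 131.2, 184.8 and 71.2 in NIH3T3. In NMuMG the series 1 replicates (39.6 and 34.0) lay below those of series 2. Of 2 annotated pseudogenes named for Gapdh 0 are among the deposited entries, and the part of such copies in its level was not tested. Pgk1, the first ATP-making enzyme, stood at 336, 581 and 217 in ES cells, 174, 156, 189 and 147 in NMuMG and 264, 251 and 120.2 in NIH3T3. ES cells were above NMuMG for Pgk1 in every replicate and overlapped it for Gapdh. Pgam1, which moves the phosphate, stood at 569, 779 and 473 in ES cells, 203, 197, 296 and 276 in NMuMG and 424, 447 and 211 in NIH3T3, and ES cells were again the highest. In ES cells against NMuMG, Gapdh rose by 1.24 (SE 0.469, adjusted p = 0.0368), Pgk1 by 1.07 (SE 0.347, adjusted p = 0.0189) and Pgam1 by 1.31 (SE 0.292, adjusted p = 0.00251). Gapdh was not called with no filter on low values or without ES 2, ES 4, NMuMG 1 or NMuMG 2, and Pgk1 not with quantile normalization or without ES 2. The muscle form Pgam2 stayed between 0.220 and 2.37 FPKM. It was called in ES against NIH3T3, at 2.17, 2.37 and 1.86 FPKM against 0.220, 0.415 and 0.761 (log2 change 1.11, SE 0.189), though not without NIH3T3 1.

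Enolase 1 cannot be read from its own entry. Eno1 was listed at 0 in NMuMG 3, NIH3T3 2 and NIH3T3 3 and at 20.1 to 555 FPKM in the other replicates. Gm5506, a near-identical copy, has 1 entry at the Eno1 locus itself (chromosome 4) and 1 on chromosome 18, the first with the authors' low-data status in all 11 libraries, and together they stood at 371 to 1488 FPKM, above Eno1 in every replicate. Added to Eno1, a step chosen after the values were seen, they gave 1829, 2043 and 1100.0 FPKM in ES cells, 622.5, 519, 999.6 and 742 in NMuMG and 980.4, 1004 and 461 in NIH3T3. The sum was highest in the 3 ES replicates, with log2 changes of 1.19 against NMuMG (SE 0.343, adjusted p = 0.0104) and 1.06 against NIH3T3 (SE 0.367, adjusted p = 0.0278). On the entry alone Eno1 was not called in ES against NMuMG (3.15, SE 1.84) or NIH3T3 against NMuMG (-3.23, SE 1.84), and in ES against NIH3T3 it was called (6.38, SE 1.96) against 2 listed zeros. The neuronal Eno2 and the muscle form Eno3 were highest in NIH3T3. Eno2 stood at 13.2, 5.23 and 13.4 FPKM there and 0.400 to 1.97 elsewhere, and rose by 2.55 against NMuMG (SE 0.348, adjusted p = 0.000191). Eno3 stood at 45.4, 32.3 and 18.1 against 7.83 to 12.9 in NMuMG and 4.53 to 10.6 in ES cells, and rose by 1.496 (SE 0.340, adjusted p = 0.00519). NIH3T3 lay above all other replicates for both, and in ES against NIH3T3 they fell by 2.47 and by 2.01.

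**Figure D3:**
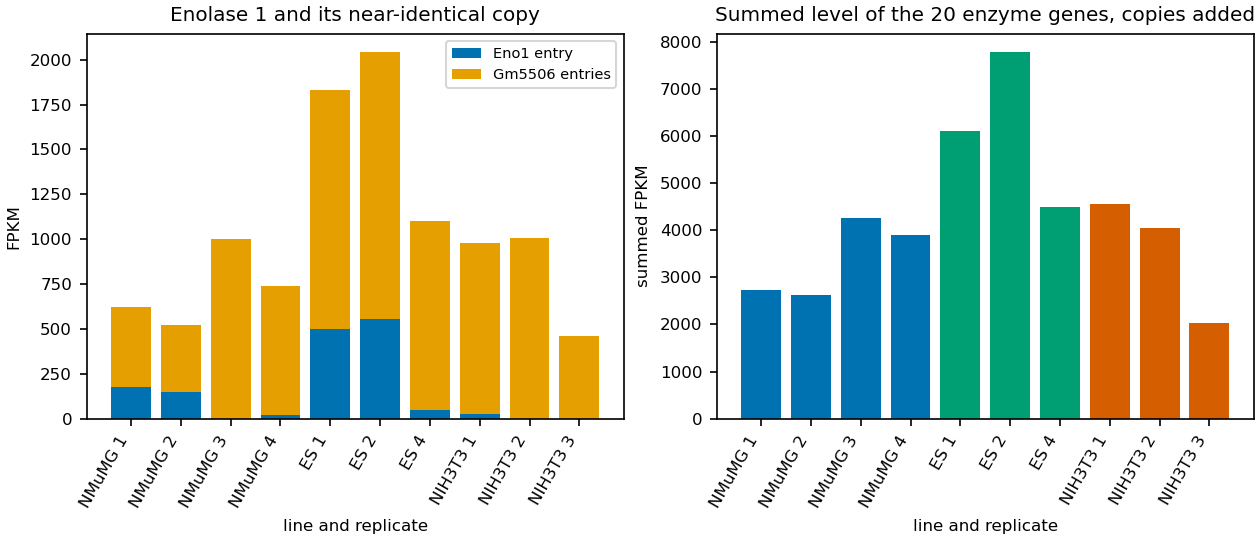
Left, FPKM of the Eno1 entry and of the Gm5506 entries stacked, by replicate. Right, summed FPKM of the 20 enzyme genes from hexokinase to lactate dehydrogenase with these and the Aldoa copies added, by replicate (NMuMG blue, ES green, NIH3T3 orange), where ES 4 lies close to NIH3T3 1 and NMuMG 3.

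Pyruvate kinase separated NMuMG from the others through its minor isoform. Pkm, whose M1 and M2 splice forms share this entry, stood at 1162, 1260.0 and 751 FPKM in ES cells, 438, 498, 754 and 748 in NMuMG and 770, 662 and 305 in NIH3T3, with overlap and no call (log2 changes 0.80, -0.14 and 0.94). Pklr (mm10 chr3:89136142-89146594), the liver and red cell enzyme, stood at 46.6, 70.2, 38.0 and 79.0 FPKM in NMuMG. It was at 0.740, 0.511 and 0.395 in ES cells, and in NIH3T3 it was listed at 0 in replicate 1 and at 0.00809 and 0.00812 in replicates 2 and 3. It fell by 5.21 in ES cells against NMuMG (SE 0.243, adjusted p = 4.85e-08) and by 5.83 in NIH3T3 (SE 0.243, adjusted p = 2.44e-08). In NMuMG it made up 9.08% ± 3.14 (4.80% to 12.4%) of the step, and Pkm the rest.

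Lactate dehydrogenase is built from A and B subunits, and Ldha led the step in every replicate. It stood at 739, 895 and 389 FPKM in ES cells, 251, 280.0, 574 and 388 in NMuMG and 527, 610 and 214 in NIH3T3, with overlap and no call (log2 changes 0.84, 0.21 and 0.63). Ldhb (mm10 chr6:142490249-142507943), the heart form, was nearly missing from NMuMG, at 1.54, 0.0667, 0.808 and 0.110 FPKM. It stood at 50.8, 96.2 and 200.5 in ES cells and 48.8, 29.2 and 39.7 in NIH3T3, all above NMuMG. Ldhb rose by 6.04 in ES cells (SE 0.449, adjusted p = 1.28e-06) and by 4.69 in NIH3T3 (SE 0.449, adjusted p = 1.33e-05), and by 1.35 in ES against NIH3T3, a call lost with a term for library series, with no filter, with a pseudocount of 0.1 and without any of ES 2, ES 4, NIH3T3 2 and NIH3T3 3 in turn. It took 6.43% to 34.0% of the step in ES cells, 4.58% to 15.7% in NIH3T3 and at most 0.608% in NMuMG.

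Lactate leaves the cell through monocarboxylate transporters. Slc16a1, or MCT1, works in both directions and stood at 41.0, 42.0 and 45.6 FPKM in ES cells, 16.1, 21.0, 39.9 and 31.7 in NMuMG and 35.7, 24.4 and 9.17 in NIH3T3. The ES replicates were the highest, but no comparison was called (log2 changes 0.72, -0.33 and 1.05). Slc16a3, or MCT4, is the exporter of highly glycolytic cells and of muscle. It stood at 51.9, 84.1 and 33.9 FPKM in ES cells and at 0.220 to 0.394 in all replicates of the other lines, with log2 changes of 5.36 against NMuMG (SE 0.252, adjusted p = 5.07e-08) and 5.41 against NIH3T3. It made up 55.1% ± 12.1 of the pair in ES cells, 1.25% ± 0.402 in NMuMG and 1.45% ± 0.803 in NIH3T3. In ES 4 Slc16a1 led the pair, at 57.4%. The chaperones that carry these transporters to the membrane behaved differently from each other. Bsg (basigin) was lowest in ES cells, at 197 to 246 FPKM against 371 to 511 in NMuMG and 391 to 436.5 in NIH3T3. Emb (embigin) was at 0.0149 to 0.0613 FPKM in NMuMG, 18.3 to 52.4 in ES cells and 60.4 to 345.5 in NIH3T3, and rose by 5.08 and 7.02 against NMuMG.

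The pyruvate dehydrogenase kinases switch off pyruvate dehydrogenase, and each line had its own leading gene. Pdk1, known as a target of hypoxia-inducible factor, stood at 34.2, 48.6 and 37.4 FPKM in ES cells, 6.70, 4.61, 4.21 and 4.29 in NMuMG and 12.9, 4.64 and 7.36 in NIH3T3. Pdk4, which fasting and glucocorticoids induce in muscle, stood at 72.1, 14.2 and 36.2 in NIH3T3 and at 0.887 to 3.83 in all other replicates. Pdk2, the most widely expressed form, stood at 10.2, 9.20, 5.68 and 11.9 in NMuMG, 1.27, 3.30 and 1.16 in ES cells and 3.38, 2.24 and 9.92 in NIH3T3. ES replicates were apart from all others for Pdk1, NIH3T3 for Pdk4, and for Pdk2 NIH3T3 3 overlapped NMuMG. Pdk1 rose by 2.79 in ES against NMuMG (SE 0.286, adjusted p = 1.29e-05) and Pdk2 fell by 1.85 (SE 0.419, adjusted p = 0.00277). Pdk4 rose by 3.57 in NIH3T3 against NMuMG (SE 0.509, adjusted p = 0.00026). Pdk3 stood at 10.7, 15.7 and 10.1 FPKM in ES cells and 24.1, 22.4 and 23.3 in NIH3T3, against 3.05, 0.181, 4.14 and 0.0827 in NMuMG. It rose by 2.51 and 3.42 against NMuMG. Pdk1 made up 72.5% ± 2.42 of the 4 genes in ES cells, Pdk2 51.0% ± 15.4 in NMuMG and Pdk4 48.0% ± 15.8 in NIH3T3, where replicate 2 had more Pdk3 (51.5%) than Pdk4 (32.7%).

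**Figure D4:**
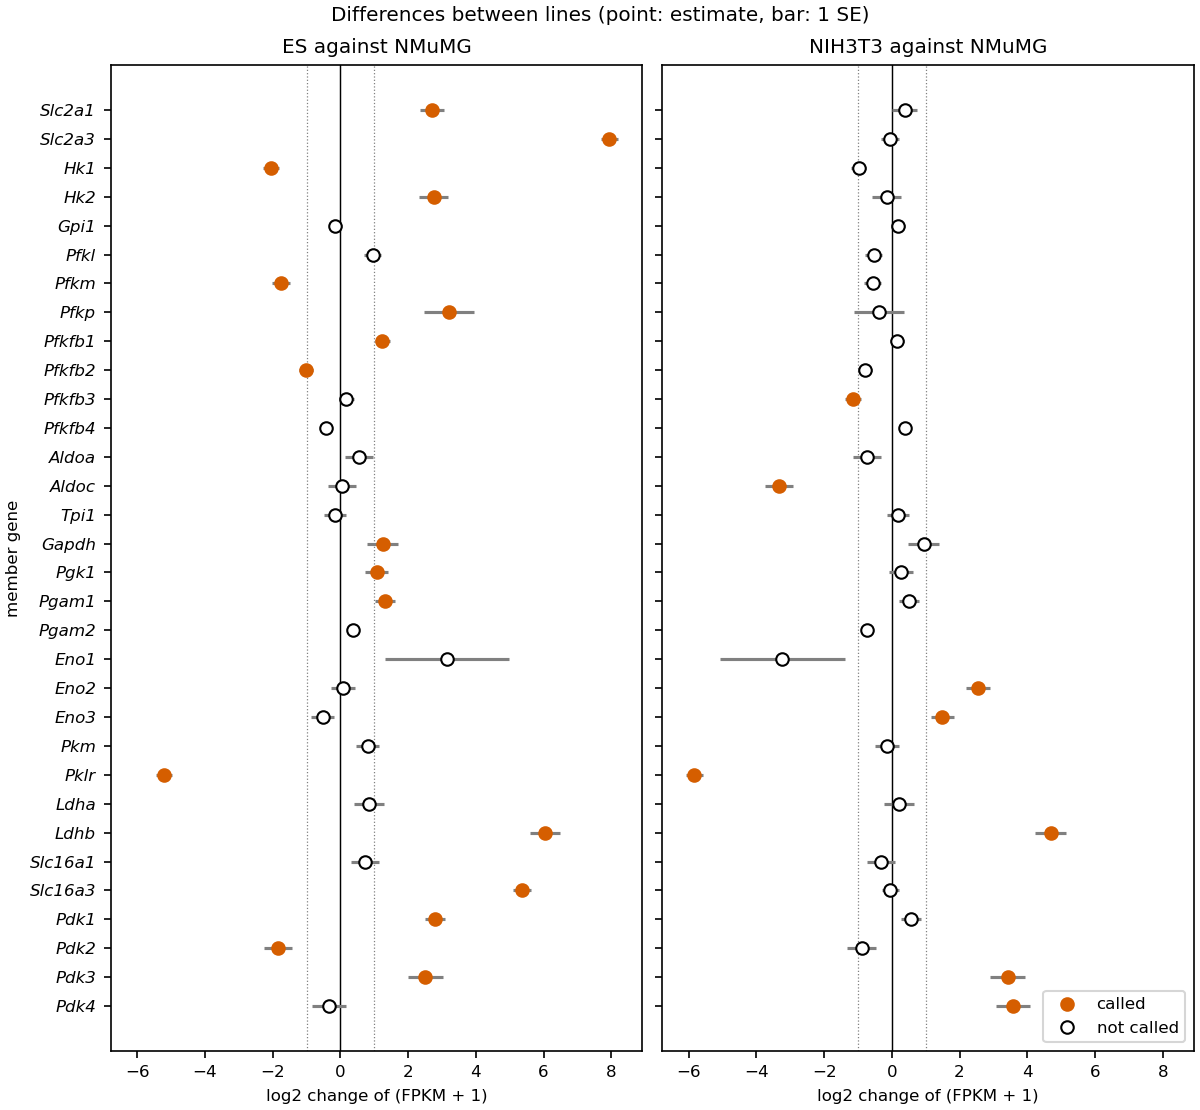
Log2 changes of the 32 tested genes in ES (left) and NIH3T3 (right) against NMuMG. Points are limma estimates, bars 1 SE, filled points called genes and dotted lines a 2-fold change; 17 genes are called on the left and 8 on the right, and the 2 panels share the NMuMG replicates.

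Taken by step, 11 of the steps have more than 1 gene here. In 5 of them the gene with the largest mean share was not the same in all lines (glucose transport, hexokinase, PFKFB, lactate transport and the pyruvate dehydrogenase kinases), and in 6 it was. By replicate the lead was mixed within a line in each of the 5 but hexokinase. Among the 6 it was mixed in phosphofructokinase 1, where Pfkm led in NMuMG 4 (51.2%) and NIH3T3 3 (52.5%). In lactate transport Slc16a1 led in ES 4 (57.4%), and among the pyruvate dehydrogenase kinases Pdk3 led in NIH3T3 2 (51.5%). Slc2a1 led in ES 1 (54.2%) and ES 2 (51.8%), and Slc2a3 in ES 4 alone (60.2%). By the mean Pfkfb3 led in ES cells, but Pfkfb1 led in ES 1 (37.8%). In NIH3T3 Pfkfb2 led by the mean, but Pfkfb4 led in replicate 1 (31.9%) and just led in replicate 2 (27.8%, with Pfkfb2 at 27.78%). Shares were compared between lines in 69 exact permutation tests, two-sided. With 4 against 3 replicates the smallest possible p is 0.0571 and with 3 against 3 it is 0.1, so no share could pass 0.05, and the smallest adjusted p was 0.146. The shares of Slc2a3, Hk2, Pfkp and Slc16a3 in ES cells overlapped those of neither other line, at that smallest p in each case. The same held in ES cells for Slc2a1, Pfkm, Pfkfb1, Pfkfb2, Pfkfb4, Eno1, Eno3, Pklr, Pdk1 and Pdk4. Most of the 69 comparisons showed no overlap, so this does not set single genes apart.

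The summed FPKM of the 20 enzyme genes, copies included, was 6105, 7781 and 4497 in ES cells, 2736, 2624, 4263 and 3890 in NMuMG and 4565, 4051 and 2036 in NIH3T3. ES 4 lay below NIH3T3 1. As a percent of the FPKM outside small nucleolar RNA and microRNA entries, the sum was 1.47, 1.95 and 1.11 in ES cells, 0.687, 0.664, 1.03 and 0.928 in NMuMG and 1.098, 0.930 and 0.492 in NIH3T3. On that scale the ES replicates were the highest, with ES 4 just above NIH3T3 1. Some replicates of 1 line also differed along much of the pathway: 18 of 19 enzyme genes were higher in ES 2 than in ES 1 (median log2 difference 0.50), 16 of 18 were higher in NMuMG 4 than in NMuMG 2 (0.46), and 16 of 17 were lower in NIH3T3 3 than in NIH3T3 1 (-1.09). Over all genes these medians were -0.02, -0.03 and -0.06. ES 2 was likewise above ES 4 for 17 of 19 enzyme genes (0.70), NMuMG 3 above NMuMG 1 for 14 of 20 (0.25) and NIH3T3 3 below NIH3T3 2 for 12 of 17 (-0.80). The remaining pairs compared were mixed, with ES 4 below ES 1 for 10 of 18 (-0.13) and NMuMG 4 above NMuMG 3 for 10 of 18 (0.08).

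Of the called ES against NMuMG changes, those of Gapdh, Pgk1, Pgam1 and Pfkfb2 reached 2-fold within library series 1 and not within series 2. In series 1 all 17 genes called in ES against NMuMG were also called, with 21.8% of the 11935 genes tested higher and 28% lower. Its replicates are among those that gave the 17 calls, so this is not an independent repeat. In series 2, where the single ES replicate is assumed to vary like the others, 14 of the 17 had a value, all in the same direction, 10 changed at least 2-fold and 6 were called: Slc2a1 (2.17), Hk1 (-2.13), Hk2 (2.27), Pfkp (2.98), Pklr (-5.32) and Pdk1 (2.87). Over the 10696 genes tested in series 2, 5.76% were higher and 21% lower. Slc2a3, Slc16a3 and Ldhb had no value there because 1 replicate cannot meet the filter of 2. Gapdh, Pgk1 and Pgam1 were at 1.82, 1.42 and 1.73 in series 1 and at 0.84, 0.38 and 0.72 in series 2. Pfkfb2 was at -1.14 and -0.94, Pfkm at -1.66 and -1.89, and Pfkfb1 at 1.25 and 1.3. Pdk2 was at -1.78 and -2.1, and Pdk3 at 2.68 and 2.23. All of these genes, from Gapdh to Pdk3, were not called in series 2. Pkm was at 1.37 in series 1 (called) and 0.00 in series 2, Ldha at 1.61 (called) and -0.28, and Aldoa at 1.05 (called) and -0.04. Tpi1 and Eno3 were called lower in series 2, at -1.07 and -1.27, and stood at 0.43 and 0.01 in series 1. For NIH3T3 against NMuMG, series 2 gave a value for 6 of the 8 called genes (not Eno2 or Ldhb), all in the same direction, and Pklr alone was called (-5.80), against 0.89% higher and 4.9% lower of 10785 genes.

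The reporter cultures were compared with their parental lines, since both were grown alike. In NMuMG 0 of the 32 genes were called in either direction (limma), with 4 at an unadjusted p under 0.05, against 0.0489% of all 12276 genes higher and 0.163% lower. In ES cells 0 were called as well, again with 4 at an unadjusted p under 0.05, against 0% higher and 0.0978% lower, and with 1 parental replicate. Pdk3 came nearest in NMuMG, at 3.05 and 4.14 FPKM in the parental replicates and 0.181 and 0.0827 in the reporter replicates. The groups did not overlap, the log2 change was -2.01 (SE 0.267, adjusted p = 0.0954), and with a pseudocount of 0.1 it was called. Pklr ran the other way, at 46.6 and 38.0 against 70.2 and 79.0 FPKM (0.81, adjusted p = 0.429). In ES cells Slc2a3 was at 169 FPKM in the parental replicate and 391 and 343 in the reporter replicates (1.11, adjusted p = 0.199), called only with no filter on low values among the alternatives. The difference of the reporter effects between lines was called for no gene of the pathway (limma, 5 at an unadjusted p under 0.05), against 0.00815% of all genes higher and 0.0163% lower. Over all genes the share at that p was 5.17% in NMuMG, 8.95% in ES cells and 7.89% for the difference. NMuMG 4, a reporter replicate, stood apart in proliferation genes, with a mean log2 level of 2.18 over 12 genes against 4.08 to 5.72 in the other NMuMG replicates, and the part of this in these values was not tested.

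Around the pathway, several genes of sugar handling were highest in NMuMG. Of 12 tested isoforms and neighbours 1 rose and 5 fell in ES cells against NMuMG, and 3 rose and 5 fell in NIH3T3. The shares of all genes given above (19.4% higher and 26.4% lower, and 10.6% and 14.4%) are the background of all counts over lists, and at an unadjusted p under 0.05 stood 71% of all genes in the first comparison and 48.5% in the second. Several of these genes reached 1 FPKM in 1 line alone and entered the test through it, among them Slc2a2, Slc2a9, Fbp2 and Gpd1 in NMuMG and Slc2a6, Slc2a10 and Adm in NIH3T3. Counts that include them are descriptions. Hkdc1, a hexokinase-like enzyme, stood at 4.61 to 6.89 FPKM in NMuMG and fell by 1.98 in ES cells and by 2.74 in NIH3T3. Slc2a9, a urate and sugar transporter, stood at 5.78 to 11.9 and fell by 3.28 and by 2.66. Fbp2, a fructose bisphosphatase of gluconeogenesis, stood at 11.9 to 24.9 FPKM in NMuMG, at most 0.865 in ES cells and listed at 0 in NIH3T3. Of 5 tested gluconeogenesis genes 0 rose and 4 fell in ES cells against NMuMG (limma, 5 at an unadjusted p under 0.05), with Pck2 at a log2 change of -1.96, and 1 rose (Pcx, 1.02) and 1 fell (Fbp2, -4.36) in NIH3T3. Gpd1, which draws glycerol phosphate off glycolysis, stood at 70.8 to 144.7 in NMuMG and at most 0.734 elsewhere, with log2 changes of -6.08 in ES cells and -6.32 in NIH3T3. In the branch list 2 of 16 rose and 6 fell in ES cells, where Gfpt2, of the hexosamine branch, stood at 23.1 to 38.1 FPKM against at most 0.0438 in NMuMG and rose by 4.90. In NIH3T3 2 rose and 2 fell, among them Gpd1l (-2.46). Slc2a10 was a transporter of NIH3T3, at 3.39 to 4.62 FPKM against at most 0.0514 elsewhere, and rose by 2.27 against NMuMG.

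Both subunits of the mitochondrial pyruvate carrier were lower in ES cells, while the pyruvate dehydrogenase complex genes Pdhb and Pdhx were higher. Of 9 tested genes that take pyruvate into mitochondria or its oxidation, 0 rose and 2 fell in ES cells against NMuMG (limma, 5 at an unadjusted p under 0.05), namely Mpc1 and Mpc2. Mpc1 stood at 3.76, 4.75 and 4.65 FPKM in ES cells and 11.3 to 14.3 in NMuMG, and Mpc2 at 15.5, 11.8 and 16.0 against 34.7 to 46.2. The groups did not overlap, with log2 changes of -1.39 and -1.41 (SE 0.205 and 0.238, adjusted p = 0.00017 and 0.000416). Pdhb ran the other way, at 81.6 to 98.85 FPKM in ES cells, 42.0 to 48.5 in NMuMG and 25.1 to 41.9 in NIH3T3. So did Pdhx, at 15.3 to 19.6, 10.2 to 12.9 and 6.26 to 9.91, and neither was called against NMuMG. Over the 9 genes the median log2 change in ES cells against NMuMG was 0.12, with 5 positive and 4 negative. In NIH3T3 against NMuMG 0 of the 9 were called (limma, 5 at an unadjusted p under 0.05). Of the 7 pentose phosphate genes 0 rose (2 at an unadjusted p under 0.05) and 1 fell in ES cells against NMuMG, G6pdx (-1.02, SE 0.267), which makes the first step of that branch. In NIH3T3 against NMuMG 1 of them fell, Tkt (-1.21), a transketolase.

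Regulators of the pathway differed by family member. Mycn, a MYC family factor, stood at 211, 114 and 105 FPKM in ES cells and at most 3.69 elsewhere, and rose by 6.28 against NMuMG (SE 0.253, adjusted p = 1.60e-08). Mycl, listed as Mycl1, rose by 1.43 (SE 0.325). Of 15 regulators 3 rose and 1 fell in ES cells (Myc, by 1.27), and 2 of each in NIH3T3 against NMuMG, where Epas1 fell by 3.39 and Egln3 by 3.22. Among 12 other targets of hypoxia-inducible factors 4 rose and 2 fell in ES cells. Bnip3, which acts in mitophagy, rose by 2.77 (SE 0.643), while Ndrg1 fell by 3.00 (SE 0.503) and Vegfa, the vessel growth factor, by 2.46 (SE 0.486). In NIH3T3 against NMuMG 2 rose and 2 fell, with Adm at 11.1 to 30.5 FPKM against at most 0.0287 in NMuMG (log2 change 4.28) and Ddit4 at a log2 change of -1.98. Of 12 proliferation genes 10 rose and 0 fell in ES cells against NMuMG, with a median log2 change of 2.39, led by the DNA replication gene Mcm5 (3.71) and the mitotic cyclin Ccnb1 (3.61). Without NMuMG 4, an alternative added after seeing the data, 10 rose again with a median of 1.64, Mcm5 at 2.91 and Ccnb1 at 2.84. Without it the count of falls in ES cells went from 1 to 0 of the regulators (limma, 7 at an unadjusted p under 0.05) and of the pentose phosphate genes (2 at that p) and from 5 to 4 of the isoforms. In NIH3T3 it went from 2 to 0 of the other targets of hypoxia-inducible factors (5 at that p) and from 2 to 3 of the regulators. In NIH3T3 0 of the 12 were called (limma, 1 at an unadjusted p under 0.05), and the part of proliferation in the levels above was not tested.

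In ES against NIH3T3, where 20.1% of all genes were higher, 23% lower and 66.6% at an unadjusted p under 0.05, the same lists gave 1 rise and 3 falls among the 12 isoforms (Slc2a10 at -2.25 and Emb at -1.94) and 2 falls among the 5 gluconeogenesis genes (G6pc3 at -2.47, Pck2 at -1.68). Of the 7 pentose phosphate genes Rpia alone was called (-1.15). Among the 9 pyruvate genes 2 rose and 3 fell, with Mpc2 at -2.03 and Pdp1, a phosphatase that reactivates pyruvate dehydrogenase, at -1.77. Of the 16 branch genes 3 rose and 5 fell, led by Gfpt2 (3.65) and Shmt1 (2.46). Of the 15 regulators 5 rose and 0 fell (limma, 10 at an unadjusted p under 0.05), led by Mycn (5.15) and Epas1 (3.11). Of the 12 other targets of hypoxia-inducible factors 3 rose and 5 fell, led by Adm (-3.73) and Vegfa (-2.27), and of the 12 proliferation genes Ccnb1 (2.35) and Mcm2 (1.47) rose.

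Markers of other cells that use the muscle, fat or nerve isoforms were low, apart from Tubb3 in ES cells. Summed over 4 genes, skeletal muscle markers stood at 0 to 3.42 FPKM in all replicates, with Myod1, Myog and Ckm each at most 0.387 FPKM. Adipocyte markers stood at 0.288 to 5.36 FPKM in NIH3T3, nearly all Fabp4 and highest in replicate 1, which also had the most Pdk4, and at most 0.0738 elsewhere. Neuron markers stood at 31.0 to 62.0 FPKM in ES cells against at most 2.37 elsewhere, nearly all of it Tubb3, with Rbfox3 at 0.180 to 0.230 and Syp at 0.412 to 1.18. Of 3 primitive endoderm markers Gata6 stood at 21.2 to 30.8 FPKM in NMuMG, 1.10 to 4.65 in ES cells and 1.26 to 1.64 in NIH3T3, with log2 changes of -2.84 and -3.35 against NMuMG, both called. Gata4 stood at 7.07 to 8.63, 1.95 to 5.76 and 3.38 to 6.98. Sox17 went the other way, at 0.585 to 2.74 FPKM in ES cells, at most 0.0123 in NMuMG and listed at 0 in NIH3T3. Summed, these markers were at 28.2 to 38.3 FPKM in NMuMG, 3.63 to 12.5 in ES cells and 5.02 to 8.47 in NIH3T3. Most of the NMuMG sum was Gata6, which was high in the line that was high in Pklr, Fbp2 and Gpd1. The part of any of these markers in the levels of the pathway was not tested.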

How the data were processed

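Total RNA of 3 mouse lines was sequenced in 11 libraries with the NEBNext Ultra RNA kit on a HiSeq instrument, per the labels. Per the submitters' processing notes the authors used bcl2fastq 1.8.4, TopHat and Cufflinks with mm10; versions of the latter are not given in the sources used here. The authors deposited FPKM per gene entry, used here with no rescaling. Entries of a symbol were summed (260 symbols), 3 failed entries were left out, and 2 technical runs were averaged, giving 10 replicates. Absolute depth is unknown, so the spread between replicates gives the precision.

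A linear model of log2(FPKM + 1) was fitted to all genes in limma 3.58.1 (R 4.3.3), letting the prior variance follow the mean level, and p-values were adjusted by Benjamini-Hochberg. Tests were two-sided. A gene entered the fit of the lines if 3 of the 10 replicates reached 1 FPKM, and that of the reporter cultures, over 7 replicates, or a single series if 2 did. The procedure was tested on simulated data. Shares of a step's summed FPKM were compared by exact permutation (SciPy 1.17.1), with the copies added to Eno1 and Aldoa. Sequences came from RefSeq (GRCm38.p6). Dominant isoforms and called genes of the pathway are given by replicate, the rest by range. Of each other list the 2 largest called changes of each line comparison are named, with others chosen after their values were seen. Members and lists were chosen with earlier results of these data known. Alternatives were another pseudocount, filter, scaling or variance model, the highest entry of a symbol, a series term, each series alone and each replicate left out. Reporter numbers pair only 2 NMuMG cultures, whose deviations correlated at 0.274 over genes, so no pairing was assumed.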

Additional observations from a re-analysis of the deposited data

Results flagged for a closer look

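In a group of 4, a value was marked when its gap to the nearest other replicate passed Dixon's critical value as a part of the group's range. NMuMG is the only line with 4 replicates, and 30 gene levels and 24 shares of this pathway were examined there. Chance marks about 1 in 20 such groups, and 2 values were marked. The level of Pdk1 was 6.70 FPKM in NMuMG 1 against 4.21 to 4.61 in the others, a gap of 0.84 of the range. The share of Pfkfb1 among the PFKFB genes was 19.1% in NMuMG 3 against 7.15% at the lowest, a gap of 0.919 of the range. Both lie far from the ES range of the same values, 34.2 to 48.6 FPKM and 32.7% to 38.2%.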

How the results depend on the processing

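No value called as reported changed sign under an alternative. Of the called genes, 9 of 17 (ES against NMuMG), 3 of 8 (NIH3T3 against NMuMG) and 11 of 19 (ES against NIH3T3) kept their call in every alternative in which they could be fitted. Leaving out 1 replicate gave 12 to 18, 8 to 11 and 15 to 19 called genes, and 0 in both reporter comparisons. Without any 1 of the ES replicates Slc2a3 and Slc16a3 did not pass the filter of the line fits. Their calls could therefore not be tried there, and in ES against NMuMG they rest on 17 alternatives where most genes had 21. Within series 2 the counts were 8 in ES against NMuMG (4 higher, 4 lower) and 1 in NIH3T3 against NMuMG, out of 27 tested. Those fits hold 1 ES and 1 NIH3T3 replicate. With the pseudocount of 0.1 the NMuMG reporter count was 1 (Pdk3), and with no filter the ES reporter count was 1 (Slc2a3). The library series as a replicate block gave 18, 8 and 14 called genes in the line comparisons and 0 in the reporter comparisons. In ES against NIH3T3 the block lost Aldoa, Eno1, Hk1, Ldhb, Pfkl and Pfkp, since it rests on NIH3T3 1 alone. Scaling moved the median of all genes in ES against NMuMG from -0.09 to 0.03 (median-ratio) and 0.07 (quantile), and the higher and lower calls over all genes from 2392 and 3259 to 2794 and 2915 and to 2876 and 2732. The pathway counts were then 13 higher and 4 lower, and 11 and 4. Steps whose leading gene differed between lines were 5, 4 to 5 with a replicate left out, 4 within either series and 6 with Eno1 and Aldoa taken without their copies, a choice added after seeing the data. Depth limits the genes under 1 FPKM, where folds on log2(FPKM + 1) are compressed, and FPKM of entries that overlap others is uncertain.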
